A study of Mus musculus with 2 samples.

Results

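Neuropeptide and hormone receptors of the G protein-coupled family were followed in the hypothalamus of mice lacking Crtc1 and of wild-type mice. The group held 42 receptor genes named by symbol, and it took in every probe set that the platform annotation paired with a single one of those symbols. Of the 42 genes, 39 had such a probe set and together they had 66 probe sets, out of 18193 genes with a probe set on the array. Mc4r, Galr3 and Ednra had none paired with them alone and were not analysed here. The first sample was RNA from Crtc1 knockout hypothalami and the second RNA from wild-type hypothalami. All animals were males aged 12 weeks that had gone without food for 18 h and had then eaten again for 6 h. Equal amounts of RNA from 3 animals of a genotype were combined, so each genotype was 1 pooled sample on 1 array. The sources used here give neither the mouse strain nor how Crtc1 was disrupted. With 1 array per genotype no test between genotypes was possible, and no difference below has a replicate check.

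Receptors of this family sit in the cell membrane and pass the binding of a peptide or hormone to a G protein inside the cell. Receptors coupled to Gs raise cyclic AMP, those coupled to Gi lower it, and those coupled to Gq release calcium from internal stores. In the hypothalamus they read the peptides that set hunger, satiety, stress, reproduction and daily rhythm. Crtc1 is a coactivator of CREB, a transcription factor that binds the cyclic AMP response element (CRE) in promoters and is activated by cyclic AMP and calcium. The study's title names energy balance and fertility as needing Crtc1, and the comparison asks how transcripts differ without it.

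Promoter sequences show which receptor genes carry the element that CREB binds close to their start. RefSeq promoter windows of build GRCm38.p6, from 250 bases before to 50 bases after the start, were found for 33 of the 42 genes, in 41 windows. The full CRE, TGACGTCA, stood in 1 of these windows, and in 1.79% of all 32851 mouse windows in the table. Its core, TGACG on either strand, stood in 12 of the 41 windows (29.3%), against 20.8% of all windows, and every full CRE holds it on both strands. The 12 windows belonged to 11 genes. Among the 19 windows of receptors above background the core stood in 4 (21.1%), near the share of all windows. The windows below, cut to the 250 bases before the start, are those of the 4 receptors above background that hold the core and of Npy1r and Vipr2, whose signals were at least 1.5-fold apart between the pools. Capitals mark the full CRE in Sstr2 and the core elsewhere, read as CGTCA in Ntsr1, where it lies on the other strand.
Sstr2, chr11:113619077-113619326, plus strand: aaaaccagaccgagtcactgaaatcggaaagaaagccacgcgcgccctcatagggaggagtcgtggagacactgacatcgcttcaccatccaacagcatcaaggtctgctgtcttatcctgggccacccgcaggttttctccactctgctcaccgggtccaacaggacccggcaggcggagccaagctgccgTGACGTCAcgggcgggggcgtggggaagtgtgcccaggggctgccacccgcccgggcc
Ednrb, chr14:103843702-103843951, minus strand: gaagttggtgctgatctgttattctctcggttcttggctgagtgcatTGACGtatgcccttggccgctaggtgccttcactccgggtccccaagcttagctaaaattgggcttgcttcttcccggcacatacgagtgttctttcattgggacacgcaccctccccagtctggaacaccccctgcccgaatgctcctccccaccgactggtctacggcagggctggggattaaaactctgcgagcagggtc
Ntsr1, chr2:180499726-180499975, plus strand: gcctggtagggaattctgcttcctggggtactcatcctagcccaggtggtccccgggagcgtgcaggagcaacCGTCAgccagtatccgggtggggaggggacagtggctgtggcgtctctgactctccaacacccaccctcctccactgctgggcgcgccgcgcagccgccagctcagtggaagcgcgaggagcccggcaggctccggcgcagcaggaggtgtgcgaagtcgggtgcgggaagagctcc
Sstr3, chr15:78544346-78544595, minus strand: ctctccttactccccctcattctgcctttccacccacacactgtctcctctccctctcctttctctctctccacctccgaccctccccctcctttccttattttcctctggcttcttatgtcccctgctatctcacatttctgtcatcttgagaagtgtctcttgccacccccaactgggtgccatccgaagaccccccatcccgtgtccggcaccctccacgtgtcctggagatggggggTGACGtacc
Npy1r, chr8:66697172-66697421, plus strand: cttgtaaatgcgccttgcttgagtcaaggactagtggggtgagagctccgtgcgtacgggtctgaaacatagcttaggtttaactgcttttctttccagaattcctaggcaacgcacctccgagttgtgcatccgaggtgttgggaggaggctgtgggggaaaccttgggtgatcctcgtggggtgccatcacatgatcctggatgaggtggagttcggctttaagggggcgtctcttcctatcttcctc
Vipr2, chr12:116077476-116077725, plus strand: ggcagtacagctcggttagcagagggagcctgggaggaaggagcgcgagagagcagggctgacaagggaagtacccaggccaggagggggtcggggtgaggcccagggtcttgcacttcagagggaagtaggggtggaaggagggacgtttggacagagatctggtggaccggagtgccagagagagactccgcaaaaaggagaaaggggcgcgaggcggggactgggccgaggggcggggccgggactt
The full CRE of Sstr2 began 58 bases before the start. The core began 203 bases before the start in Ednrb, 177 in Ntsr1 and 9 in the Sstr3 window shown. The windows of Npy1r and Vipr2 held neither. A match describes letters in the window and says nothing about binding.

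The deposited signal is a linear intensity for each probe set. A probe set was called measured, or above background, where the mean of its 2 log2 signals reached the median of all such means, which corresponds to a signal of 52.3. A second view of background came from 80 probe sets of olfactory and vomeronasal receptor genes, a family of receptors made in the nose. The 95th percentile of their signals was 39.8 in the knockout and 41.1 in the wild type, and 2 of the 80 were measured. Signals of different probe sets are not compared as levels, because each probe set binds with its own strength. Differences are log2 signal in the knockout pool minus log2 signal in the wild-type pool. The array error beside a difference is the SD of differences among a gene's measured probe sets, pooled over genes of like brightness, and it holds no spread between mice. By rising brightness, with borders at mean log2 signals of 7, 8, 9 and 10, it was 0.32, 0.26, 0.23, 0.21 and 0.16.

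As a check of the labels, Crtc1 read 85.1 in the knockout and 631 in the wild type by its brightest probe set. Median signals were 54.4 in the knockout and 52.2 in the wild type. Of the 16 hypothalamic marker genes with a probe set 8 were measured, with bright signals for the peptide genes Pmch, Avp, Oxt and Hcrt, while Sim1, Nkx2-1, Nr5a1 and Rax were not. The 16 summed to 7631 in the knockout and 7083 in the wild type. Of the 8 measured, 4 were higher and 4 lower in the knockout pool, from -0.35 in Pomc to 0.56 in Avp. Avp (array error 0.16) and Oxt (difference 0.48, array error 0.21) were higher beyond their array errors. None of the 8 pituitary genes with a probe set was measured. Markers of other brain regions were measured wherever they had a probe set, 7 of thalamus, 6 of striatum and 8 of cortex and hippocampus. Their summed signals in the knockout and the wild type were 9201 and 9351 for thalamus and 3777 and 3625 for striatum. For cortex and hippocampus they were 4035 and 3673. How much of the receptor signals came from such regions was not tested. Choroid plexus markers were lower in the knockout pool in 7 of 8, with summed signals of 8610 in the knockout and 9707 in the wild type. Microglial markers were higher in 6 of 7, with summed signals of 4023 in the knockout and 3475 in the wild type. Astrocyte markers summed to 13951 in the knockout and 13528 in the wild type, and neuronal markers to 29501 in the knockout and 29609 in the wild type. The part of these shifts in the receptor values was not tested. In whole hypothalamus, fewer cells of a type and less RNA per cell cannot be told apart.

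Above background stood 18 of the 39 receptor genes with a probe set (46.2%), while 62.2% of all genes with a probe set did. Of these 18 genes, 16 exceeded the limit on each array separately, and Vipr2 and Pth2r did so on 1 array. By the olfactory comparison, 20 of the 39 exceeded the 95th percentile on both arrays, 6 on 1 array and 13 on neither. The 20 include 3 genes that did not count as measured, Hcrtr1, Sstr1 and Prokr2. Just inside the limit, by mean log2 signal, lay Vipr2 at 5.75 and Pth2r at 5.85, and just outside lay Prokr2 at 5.69, Sstr1 at 5.68 and Hcrtr1 at 5.65, with the limit at 5.71.

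**Figure D1:**
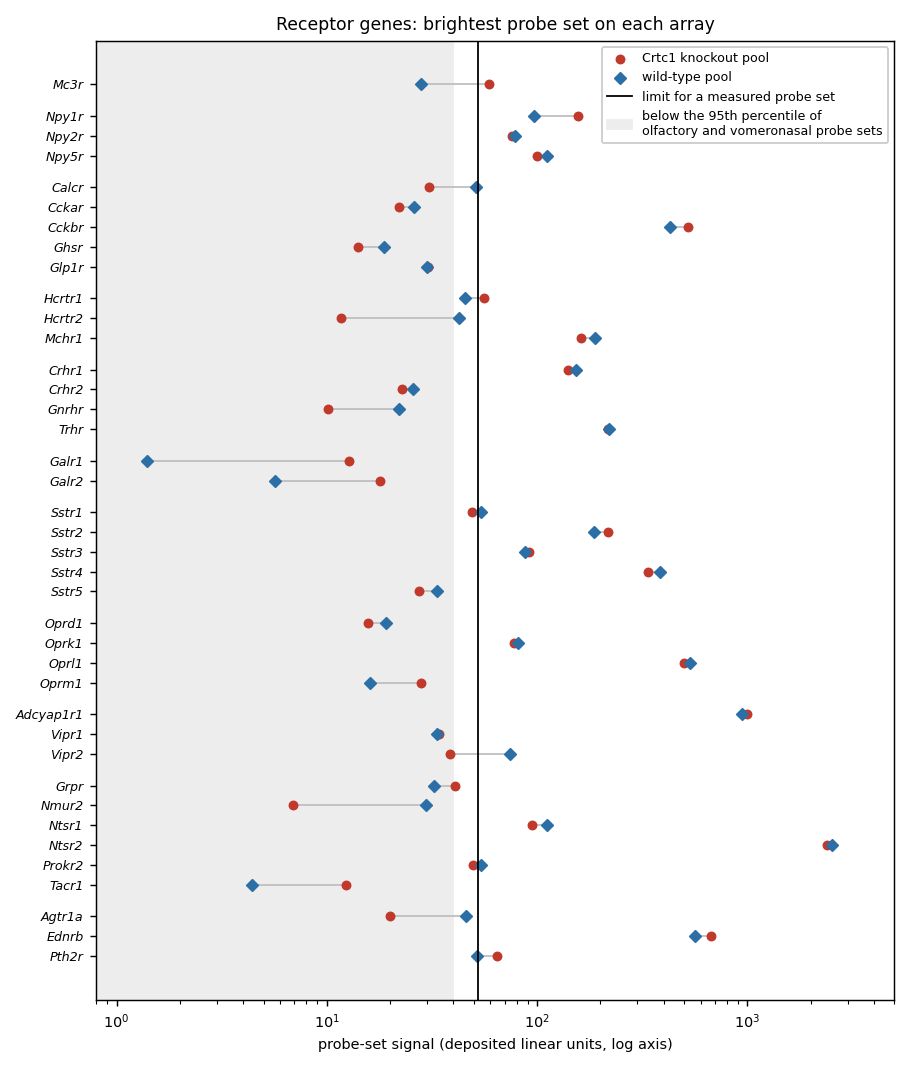
Signal of the brightest probe set of each of the 39 receptor genes in the Crtc1 knockout pool (circles) and the wild-type pool (diamonds), on a log axis in deposited linear units, grouped by ligand. The vertical line is the measured limit of 52.3 and the shaded area lies below the 95th percentile of olfactory and vomeronasal probe sets in the knockout pool, 39.8. The 2 symbols of most genes right of the line nearly coincide.

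Between the pools most measured receptors differed little. Of the 18, 14 lay within 1.2-fold, 7 were higher in the knockout and 11 lower, and the median difference was -0.06 on the log2 scale. Over all 11312 measured genes the median difference was 0.00, and 50.9% were higher. A difference of at least 1.5-fold was seen in 2 receptors, which is 11.1% of the 18, against 3.50% of all measured genes. Npy1r was higher and Vipr2 lower, where 2.06% of all measured genes were at least 1.5-fold higher and 1.44% at least 1.5-fold lower. Vipr2 was measured through the wild-type pool alone and its knockout signal was below the limit, so its fold has only a bound, at least 1.42-fold lower. Of the 16 receptors above the limit in both pools, 1 differed at least 1.5-fold, Npy1r. The matching share over all genes above the limit in both pools was not computed, so this count has no like background. At least 1.2-fold were 4 of the 18 (22.2%), against 21.9% of all measured genes, so this share was near the background. The dimmer genes vary more. Below a mean log2 signal of 7, 10.9% of all measured genes differed at least 1.5-fold, and both receptors past 1.5-fold were among the 8 receptors of that brightness. From 7 upward 1.46% of all measured genes did, and none of the 10 receptors, whose differences ran from -0.22 to 0.29. The difference exceeded the gene's own array error in 4 of the 18, and in 25.2% of all measured genes. These were Npy1r, Cckbr and Ednrb, which were above the limit in both pools, and Vipr2, which was not.

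**Figure D2:**
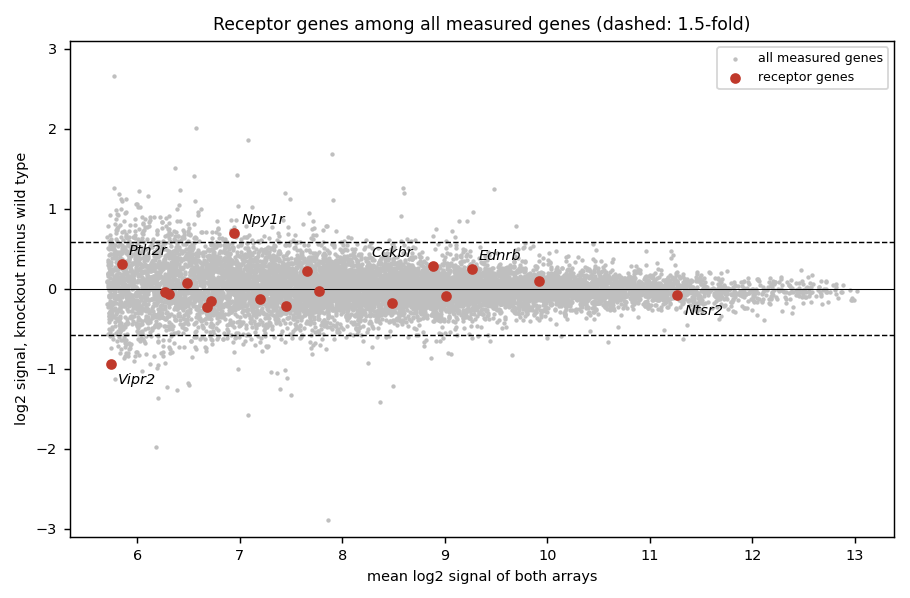
Difference in log2 signal, knockout minus wild type, against the mean log2 signal of both arrays, for 11312 measured genes (grey) and the 18 measured receptor genes (red). Dashed lines mark 1.5-fold; Npy1r lies above the upper line at 0.70 and Vipr2 below the lower line at -0.94, both at low mean signal.

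Receptors for neuropeptide Y, a peptide that drives feeding, were the one group of feeding receptors in which all members were measured. Npy1r, the Y1 receptor, read 157 in the knockout and 97.0 in the wild type by 1421471_at. This probe set was above the limit in both pools, and the knockout signal was 1.62-fold higher (difference 0.70, array error 0.32). The other probe set of Npy1r, 1426054_at, read 27.8 in the knockout and 12.3 in the wild type, below the limit in both, and so gave no second reading. Npy2r, the Y2 receptor, which acts as an autoreceptor on neurons that release neuropeptide Y, read 76.3 in the knockout and 78.5 in the wild type (difference -0.04). The Y5 receptor gene Npy5r had no settled direction. Its brighter probe set, 1419008_at, read 100.3 in the knockout and 111 in the wild type (difference -0.15). Its dimmer one, 1449312_at, read 69.4 in the knockout and 42.0 in the wild type, where it was below the limit, so it was at least 1.33-fold higher. Npy, the precursor gene of the shared ligand, read 1226 in the knockout and 1343 in the wild type (difference -0.13, array error 0.16).

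Npy1r and Npy5r lie next to each other on chromosome 8, which also carries Crtc1, at 53 and 54 protein-coding genes from it in the gene order of GRCm38.p6. Of the 603 measured genes on this chromosome 6.80% differed at least 1.5-fold, and of the 69 measured genes within 60 genes of Crtc1 on either side 10 did (14.5%). The chromosome share counts Npy1r and the disrupted Crtc1 themselves. The window reaches just past Npy1r and Npy5r and so holds Npy1r too. The part of chromosomal position in the Npy1r value was not tested. Without the 2 genes, 1 of 16 receptors was at least 1.5-fold apart by its signals, against 3.50% of all measured genes, and the median was still -0.06. That receptor was Vipr2, which was measured through the wild-type pool alone and is bounded at 1.42-fold lower.

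Other receptors of appetite and satiety were mostly below background. Mc3r, a melanocortin receptor that answers the products of Pomc and couples to Gs, read 58.8 in the knockout and 28.1 in the wild type. Only the knockout signal passed the limit, so the fold has only a bound, at least 1.12-fold higher in the knockout. On the log2 scale this bound is within the array error of 0.32. Ghsr, the ghrelin receptor, read 14.1 in the knockout and 18.8 in the wild type, both under the floor. Glp1r, the receptor of glucagon-like peptide 1, read 30.3 in the knockout and 30.0 in the wild type. Calcr, the calcitonin receptor, which forms amylin receptors with the accessory RAMP proteins, read 30.5 in the knockout and 51.1 in the wild type. None of these 3 genes passed the limit in either pool, so no fold is given.

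Of the 2 cholecystokinin receptors, Cckbr, the main form in brain, was measured and Cckar, the main form in the gut, was not. Cckbr read 522 in the knockout and 428 in the wild type by its brighter probe set, 1.22-fold higher (difference 0.29, array error 0.23). Its other probe set read 143 in the knockout and 146 in the wild type (difference -0.03), so the 2 readings had opposite signs. Cckar read 22.0 in the knockout and 26.0 in the wild type. Cck, their ligand precursor gene, differed by -0.07.

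Mchr1, the receptor of melanin-concentrating hormone, a lateral hypothalamic peptide that promotes feeding, had 3 measured probe sets of one sign. They read 162, 140 and 113 in the knockout pool and 188, 166 and 113 in the wild-type pool, with differences of -0.22, -0.24 and 0.00. The brightest was 1.16-fold lower, which is within its array error of 0.26. Its ligand precursor gene, Pmch, differed by -0.07. The receptors of the orexins, wake-promoting peptides of the same area, did not count as measured. Hcrtr1 read 55.7 in the knockout and 45.4 in the wild type, and Hcrtr2 read 11.7 in the knockout and 42.5 in the wild type. The limit was passed by Hcrtr1 in the knockout pool, which gives at least 1.07-fold higher there, and by Hcrtr2 in neither pool.

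Among receptors of releasing hormones, Crhr1 and Trhr were measured. Crhr1, which answers corticotropin-releasing hormone at the head of the stress axis, read 140 and 131 by its 2 probe sets in the knockout pool, and 154 and 125 in the wild-type pool. The differences were -0.13 and 0.07, of opposite sign and within the array errors of 0.26 and 0.32. Trhr, the receptor of thyrotropin-releasing hormone, read 216 in the knockout and 221 in the wild type by its brighter probe set (difference -0.03). Its dimmer probe set read 49.8 in the knockout pool, below the limit, and 62.3 in the wild-type pool (difference -0.32, at least 1.19-fold lower). Crhr2, which prefers urocortins, read 22.7 in the knockout and 25.7 in the wild type. Gnrhr, the receptor of gonadotropin-releasing hormone found chiefly on pituitary gonadotropes, read 10.1 in the knockout and 22.1 in the wild type. Both stayed below the limit by all their probe sets.

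Somatostatin receptors, which couple to Gi and restrain hormone release, were measured in 3 of 5. Sstr2, the gene with the full CRE shown above, read 217 in the knockout and 187 in the wild type, 1.16-fold higher (difference 0.22, array error 0.26). Sstr3, a receptor of neuronal primary cilia, read 91.7 in the knockout and 87.7 in the wild type (difference 0.06). Sstr4 read 337 in the knockout and 382 in the wild type (difference -0.18, array error 0.23). All 3 lay within their array errors. Sstr1 read 49.1 in the knockout and 53.8 in the wild type, and Sstr5 read 27.4 in the knockout and 33.3 in the wild type. The ligand precursor gene Sst read 1875 in the knockout and 2199 in the wild type (difference -0.23, array error 0.16).

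Of the 4 opioid receptor genes, Oprk1 and Oprl1 were measured. Oprk1 encodes the kappa receptor, which answers dynorphin, and read 77.4 and 62.9 by its 2 probe sets in the knockout pool, and 81.2 and 63.7 in the wild-type pool. Both differences, -0.07 and -0.02, were small. Oprl1, the nociceptin receptor gene, read 502, 397 and 212 by its 3 probe sets in the knockout pool, and 533, 397 and 204 in the wild-type pool. Its differences of -0.09, 0.00 and 0.06 straddled 0, and with 3 readings on each array it is among the best covered members. Pnoc, the precursor gene of nociceptin, read 146 in the knockout and 189 in the wild type, 1.30-fold lower (difference -0.38, array error 0.26). Oprm1, the mu receptor gene, read 27.9 in the knockout and 16.1 in the wild type by the brightest of 4 probe sets. Oprd1, the delta receptor gene, read 15.7 in the knockout and 19.1 in the wild type, under the floor in both.

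Among the receptors of PACAP and of vasoactive intestinal peptide, peptides that act on the suprachiasmatic clock, Adcyap1r1 and Vipr2 were measured. Vipr2, the VPAC2 receptor gene, read 38.7 in the knockout and 74.4 in the wild type by its single probe set. The fold from these signals was 1.92 lower in the knockout pool (difference -0.94, array error 0.32). The knockout signal was below the limit, and below the olfactory percentile, so the value that the limit allows is at least 1.42-fold lower. Adcyap1r1, the receptor with highest affinity for PACAP, read 1000.3, 254 and 213 by its 3 probe sets in the knockout pool, and 937.5, 264 and 213 in the wild-type pool. Its differences of 0.09, -0.06 and 0.00 were all within their array errors. Vipr1 read 34.3 in the knockout and 33.4 in the wild type and was not measured. Vip read 312.5 in the knockout and 384 in the wild type, 1.23-fold lower (difference -0.30, array error 0.23). Adcyap1, which encodes PACAP, had a difference of 0.19 with probe sets of opposite sign.

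Neurotensin receptors were measured in both members. Ntsr2, which in mouse brain is found on astrocytes as well as neurons, read 2395 in the knockout and 2523 in the wild type. The difference of -0.08 was under the array error of 0.16, the smallest of any receptor here, since the probe set is bright. Ntsr1 read 94.9 in the knockout and 112 in the wild type, 1.18-fold lower (difference -0.23, array error 0.32). Nts, which encodes neurotensin, read 312 in the knockout and 223 in the wild type, higher by a log2 difference of 0.48 (array error 0.23).

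Further peptide receptors were near or below background. Prokr2, a prokineticin receptor needed in mice for the development of reproductive neurons, read 49.3 in the knockout and 54.1 in the wild type. Grpr, the receptor of gastrin-releasing peptide, read 40.6 in the knockout and 32.2 in the wild type. Nmur2, a neuromedin U receptor, read 6.90 in the knockout and 29.7 in the wild type. Of these 3, only Prokr2 passed the limit, in the wild-type pool. Tacr1, the substance P receptor, read 12.3 in the knockout and 4.40 in the wild type. The galanin receptor genes Galr1 and Galr2 were, like Tacr1, under the floor of 20.5 in the knockout and 20.2 in the wild type by every probe set. At the floor no direction can be read.

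Ednrb, an endothelin receptor that in brain is found mainly on astrocytes and blood vessels, read 668, 266 and 129 by its 3 probe sets in the knockout pool, and 564, 248 and 140 in the wild-type pool. The differences were 0.24, 0.10 and -0.12, so the readings did not share a sign, and the first exceeded its array error of 0.21. Pth2r, the receptor of the peptide encoded by Pth2, read 64.1 in the knockout and 51.8 in the wild type, 1.24-fold higher (difference 0.31, array error 0.32). The wild-type signal was just below the limit, which gives at least 1.23-fold. Pth2 itself read 62.7 in the knockout and 51.0 in the wild type, which was also below the limit, so its fold has only a bound, just under 1.2-fold (difference 0.30, array error 0.32). Agtr1a, an angiotensin receptor gene of thirst and blood pressure circuits, read 19.9 in the knockout and 46.0 in the wild type, below the limit in both.

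**Figure D3:**
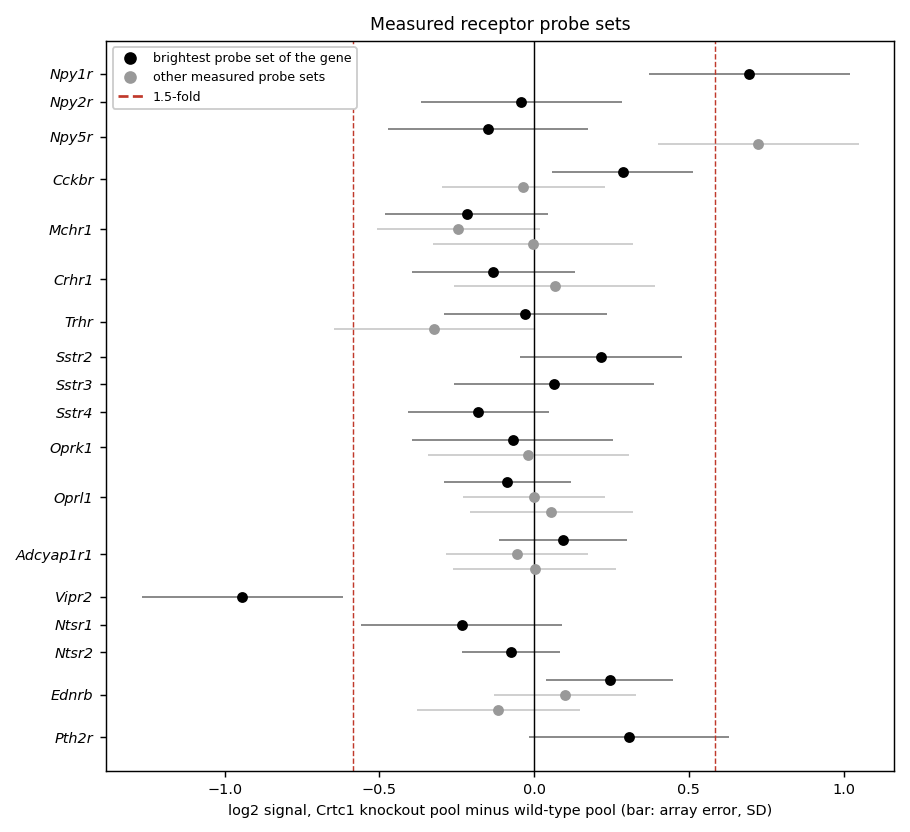
Difference in log2 signal, knockout minus wild type, for the 31 measured probe sets of the 18 measured receptor genes, with bars of 1 array error (SD). Black points are the brightest probe set of each gene and grey points its other measured probe sets. Of the 9 genes with several, 3 have points on one side of 0 and 6 on both.

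Repeat readings on the same arrays were available for 9 of the 18 genes. In 3 of them, Mchr1, Trhr and Oprk1, the probe sets shared a sign, lower in the knockout pool, and in 6 they did not. The shared signs include very small differences, -0.004 for 1 probe set of Mchr1 and -0.02 for 1 of Oprk1. The dimmer Trhr probe set was below the limit in the knockout pool. The other 9 genes, Npy1r and Vipr2 included, rested on 1 measured probe set. By G protein, the 4 measured Gs-coupled receptors had a median difference of -0.02, the 9 Gi-coupled receptors of -0.07 and the 4 Gq-coupled receptors of 0.11. Ntsr2, whose coupling was left unassigned, entered none of these. The ranges overlapped, from -0.94 to 0.31 for Gs, -0.22 to 0.70 for Gi and -0.23 to 0.29 for Gq. Averaging probe sets lowered the Gq-coupled Cckbr to 0.13, Ednrb to 0.08 and Trhr to -0.18. The Gq median therefore depends on the choice of probe set. The 4 measured genes with a CRE core had a median of 0.14, from -0.23 in Ntsr1 to 0.24 in Ednrb. The 12 measured genes whose windows lacked it had a median of -0.08, from -0.94 in Vipr2 to 0.70 in Npy1r. Trhr and Oprk1 had no window and entered neither median. Of the 4 genes with the core, Sstr2, Sstr3 and Ntsr1 lay within their array errors, and Ednrb fell to 0.08 when averaged. The first median therefore also depends on the choice of probe set, and the part of the core in these values was not tested.

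Among 42 precursor genes of the peptides that these receptors bind, 37 had a probe set and 19 were measured. Of these 19, 12 were lower in the knockout and 7 higher, with a median difference of -0.07. None of the 19 differed at least 1.5-fold. Cort, the gene of cortistatin, which binds somatostatin receptors, was not among the 19, since its mean signal fell short. It read 13.2 in the knockout and 90.4 in the wild type, and with the wild-type signal alone above the limit it was at least 1.73-fold lower. At least 1.2-fold lower were 5 (9.97% of all measured genes were), and at least 1.2-fold higher were 2 (11.9% of all measured genes were). The higher ones were Nts and, by its signals though not by its bound, Pth2, which are described above with Vip and Pnoc. Gal, the galanin gene, read 210 in the knockout and 297 in the wild type, 1.41-fold lower (difference -0.50, array error 0.26). Pomc, the melanocortin precursor gene, had probe sets of opposite sign, the brighter 1.27-fold lower. Pdyn, the dynorphin gene, was 1.22-fold lower (difference -0.28, array error 0.32).

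**Figure D4:**
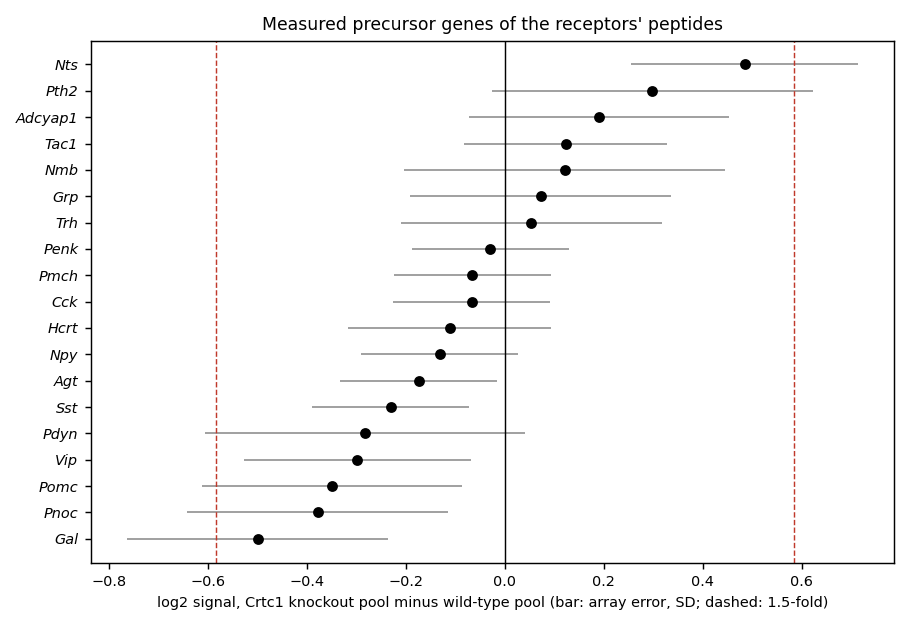
Difference in log2 signal, knockout minus wild type, for the 19 measured precursor genes of the receptors' peptides, with bars of 1 array error (SD) and dashed lines at 1.5-fold. All points lie between the dashed lines, from -0.50 for Gal to 0.48 for Nts.

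Changes of processing moved few of the receptor differences. Filters and lower floors leave the value of a bright probe set as it is, so much of this was fixed in advance. In 17 of the 18 genes the sign was the same under each of the 11 alternatives that measured the gene, Npy5r being the exception. Npy1r stayed at least 1.5-fold higher in each setting that measured it, with differences of 0.62 to 0.70. Only the rescalings and the pseudocount could change its value. The rest repeated 0.70, because Npy1r has 1 measured probe set and its signals lie above every floor. Vipr2 came closest to 0 at -0.45, with a floor at the 50th percentile of each array, where it was under 1.5-fold. In the other settings that measured it Vipr2 was past 1.5-fold. These settings used the same dim knockout signal, so they add no support, and the bound of at least 1.42-fold lower stands.

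**Figure D5:**
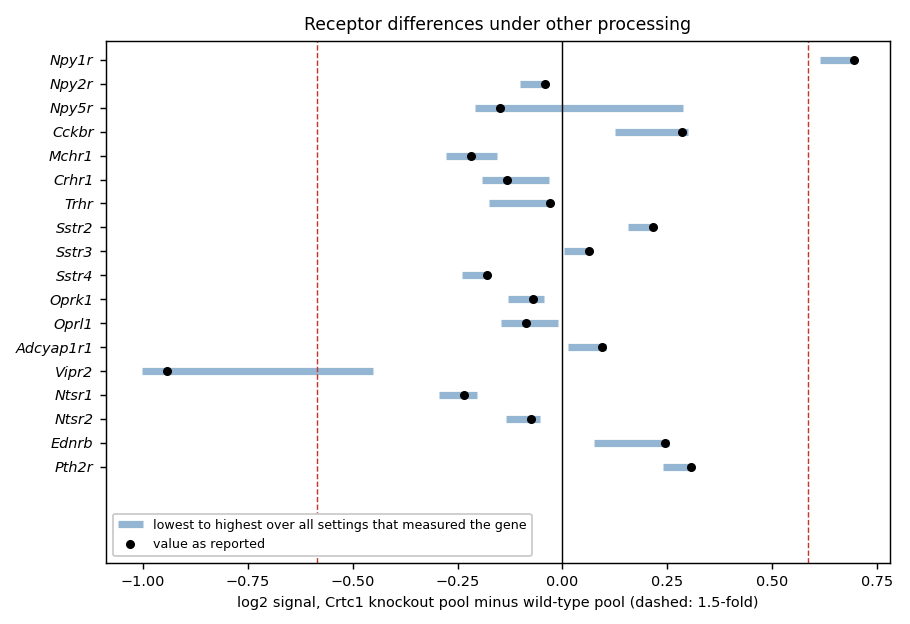
Difference in log2 signal, knockout minus wild type, of the 18 measured receptor genes as reported (points) and the range over all settings that measured the gene (bars), with dashed lines at 1.5-fold. The bar of Npy5r crosses 0 and that of Vipr2 crosses the lower dashed line.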

How the data were processed

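Trizol extracts were DNase-treated, column-cleaned and used at 30 ug of total RNA to make biotin-labelled cRNA, per the labels' protocols. The table holds 1 deposited linear signal intensity per probe set and array, scaled by the authors with 1 factor per array: from the values, the mean without the lowest and highest 2% was 200.0 on both. The sources used here do not give the summarising algorithm. Dim signals are noisy under such a scaling and can give large ratios.

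Of 45101 probe sets 64 were controls and left out. Of the rest, 34945 were paired with 1 gene in GEO's platform annotation, and symbols were updated through RefSeq (GRCm38.p6). The log2 medians of the arrays were 0.06 apart, less than the 0.1 that would have called for centring. Signals under an array's 30th percentile were set to it before log2 was taken. A gene took its brightest measured probe set. Precision is limited by the number of arrays. The members, lists and thresholds were chosen with earlier results of these data known. Every member was to be named, and of the ligand, other receptor and accessory lists the genes at least 1.2-fold apart. Steps were tested on simulated data. Python 3.11.15, pandas 2.3.3 and statsmodels 0.14.6 were used. Alternatives were median centring, quantile normalization, a loess fit with span 0.3, a floor at the 10th or at the 50th percentile, 16 as a pseudocount, no filter, a filter at the 70th percentile, the olfactory limit, averaged probe sets and leaving out _s_at and _x_at probe sets.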

Additional observations from a re-analysis of the deposited data

How the results depend on the processing

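Of 189 single receptor values under the 11 alternatives, 187 moved by less than the gene's array error and none past 1.5-fold changed sign. The other values were Npy5r with averaged probe sets, at 0.29, and Vipr2 with a floor at the 50th percentile, at -0.45. Many of the 187 could not move, since a filter or a lower floor leaves the value of a bright probe set as it is. The count of receptors at least 1.5-fold apart, 2 as reported, was 1 with that floor, with 0 lower in the knockout pool (2.93% of all genes passed 1.5-fold there). With no filter all 39 receptors entered, 18 higher and 21 lower, with 13 past 1.2-fold and 6 past 1.5-fold, of which 2 were higher and 4 lower (7.15% of all genes passed 1.5-fold). By construction this setting lists genes at the floor on both arrays as higher, since the floors differ. With a filter at the 70th percentile 9 receptors were left, 4 higher and 5 lower, with 1 past 1.2-fold and 0 past 1.5-fold either way, as Npy1r and Vipr2 were no longer measured (1.17% of all genes). With the olfactory limit 25 receptors entered, of which 11 were higher, 8 passed 1.2-fold and 4 passed 1.5-fold, 2 higher and 2 lower (5.67% of all genes), Mc3r and Calcr being added. Mc3r, Calcr and Vipr2 exceeded the olfactory percentile in 1 pool only. Agtr1a and Hcrtr2, added with no filter, passed the measured limit in neither pool. Of the receptors past 1.5-fold in these 2 settings only Npy1r was above the limit in both pools, so the counts add no support. Leaving out the receptors on the chromosome of Crtc1, an alternative chosen after seeing the data, left 1 past 1.5-fold by its signals, Vipr2, and 0 higher. The median ran from -0.11 with median centring to -0.02 with averaged probe sets. No paired analysis was possible because each genotype was 1 pooled sample.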

Other observations

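Other peptide and hormone receptors, outside the 42, were mostly below background as well. Of 42 such genes 35 had a probe set and 6 were measured, 4 higher and 2 lower in the knockout pool, with a median difference of 0.09 and none at least 1.5-fold apart. Pth1r, a parathyroid hormone receptor, read 74.4 in the knockout and 106 in the wild type, 1.42-fold lower (difference -0.51, array error 0.32). Qrfpr, the receptor of the RFamide peptide QRFP, read 64.1 in the knockout and 44.0 in the wild type. The wild-type signal was below the limit of 52.3, so the fold has only a bound, at least 1.23-fold higher. The 4 measured genes of proteins that accompany receptors lay within 1.2-fold, and all were lower in the knockout pool, Ramp1 barely so. Mrap2, which modulates melanocortin receptors, differed by -0.02, and Ramp1, Ramp2 and Ramp3, which pair with calcitonin family receptors, by 0.00, -0.25 and -0.06. Of these, Ramp2 exceeded its array error of 0.21.

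The 3 probe sets that the annotation pairs with both Gcat and Galr3 entered no receptor value. The brightest, 1417823_at, read 86.4 in the knockout and 114 in the wild type, 1.32-fold lower. A second, 1450581_at, read 44.8 in the knockout and 61.3 in the wild type, and the third was under the floor on both arrays.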
